A study of Mus musculus with 10 samples.

Results

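The members described here are 9 genes of the machinery that decides, in the G1 phase of the cell cycle, whether a cell divides again: the inhibitors *Cdkn1a*, *Cdkn1b*, *Cdkn2c* and *Cdkn2d*, the D cyclins *Ccnd1*, *Ccnd2* and *Ccnd3*, and the kinases *Cdk4* and *Cdk6* that the D cyclins activate. They were chosen by gene symbol, each symbol matched 1 Ensembl gene, and they make up 9 of the 52227 genes of the count table. All 9 passed the filter on low counts. RNA of the cortical hem (CH), the signaling center at the medial edge of the telencephalon, was sequenced at e13.5 from 5 wild-type embryos and from 5 embryos that carry the *drJ* allele on both copies of *Lmx1a*, a transcription factor gene of the CH. The *drJ* allele carries a point mutation that leaves the protein inactive but still made, and the homozygous embryos are called *Lmx1a-/-*. Both genotypes had a mixed C57Bl6, FVB and CD1 background, and the study as a whole used males and females. Among the sequenced embryos sex was uneven between genotypes, as the *Xist* and Y-linked levels below show. The CH was cut from frozen sections by laser capture, with neighboring sections stained for Lmx1a to set its borders. The sections of 1 embryo went into 1 library, so the 5 replicates per genotype are separate embryos.

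D cyclins bind Cdk4 or Cdk6, and the active pair phosphorylates the retinoblastoma protein, which then releases E2F transcription factors that switch on the genes of DNA replication. Inhibitors of the INK4 family, *Cdkn2c* and *Cdkn2d* among them, bind Cdk4 and Cdk6 alone, whereas the Cip/Kip inhibitors encoded by *Cdkn1a* (p21) and *Cdkn1b* (p27) bind whole cyclin and kinase complexes. In the embryonic telencephalon, D cyclins are found in cycling progenitors, and Cip/Kip inhibitors accumulate as cells leave the cycle.

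Libraries held between 19145952 and 36462780 counts, of which 20.6% to 27.6% came from mitochondrial genes. Levels are normalized CPM, the count of a gene scaled to a fixed library total after TMM scaling between libraries, and a difference is the log2 fold change of *Lmx1a-/-* relative to wild-type embryos. Among marker lists, that of the CH itself was expressed in every library (summed 2422 to 4588 CPM in wild-type embryos and 2868 to 3973 CPM in *Lmx1a-/-* embryos), with no marker at 0 in all libraries. *Lmx1a* was transcribed in both genotypes, at 71.2 ± 18.2 and 114 ± 21.0 CPM (SD, n = 5 each). *Xist* stood between 4399 and 5169 CPM in wild-type embryos 2 to 5 and at or below 1.15 CPM in the other 6 embryos, which alone had Y-linked transcripts above 0.06 CPM, so sex differed between the genotypes except for wild-type embryo 1.

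Promoters of 2 members whose levels differed between genotypes are shown first because they are the sequences from which those transcripts start. RefSeq windows of 300 bases around annotated start sites (GRCm38.p6, 250 bases before and 50 after) matched 7 of the 9 members, in 10 windows. *Ccnd1* and *Ccnd2* are named only. *Cdkn1a* has 2 windows, at chr17:29090729-29091028 and, inside the gene, at chr17:29093519-29093818, both on the plus strand. The window of *Cdk6* is at chr5:3343643-3343942 on the plus strand. In the first *Cdkn1a* window the capitals mark 2 matches to the decamer of the p53 consensus site, in the second 2 copies of the GC box GGGCGG, and in the *Cdk6* window a TATAAA.
Cdkn1a window 1: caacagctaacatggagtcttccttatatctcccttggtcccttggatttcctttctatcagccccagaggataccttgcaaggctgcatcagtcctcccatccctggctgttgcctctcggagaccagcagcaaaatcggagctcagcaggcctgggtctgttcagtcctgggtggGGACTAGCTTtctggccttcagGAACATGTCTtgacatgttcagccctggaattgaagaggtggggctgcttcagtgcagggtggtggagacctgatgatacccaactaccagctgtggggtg
Cdkn1a window 2: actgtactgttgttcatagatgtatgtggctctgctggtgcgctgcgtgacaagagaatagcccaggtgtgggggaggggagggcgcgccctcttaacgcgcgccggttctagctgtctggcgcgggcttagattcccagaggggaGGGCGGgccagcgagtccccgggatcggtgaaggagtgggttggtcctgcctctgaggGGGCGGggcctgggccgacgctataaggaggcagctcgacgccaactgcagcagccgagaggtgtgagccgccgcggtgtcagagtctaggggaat
Cdk6: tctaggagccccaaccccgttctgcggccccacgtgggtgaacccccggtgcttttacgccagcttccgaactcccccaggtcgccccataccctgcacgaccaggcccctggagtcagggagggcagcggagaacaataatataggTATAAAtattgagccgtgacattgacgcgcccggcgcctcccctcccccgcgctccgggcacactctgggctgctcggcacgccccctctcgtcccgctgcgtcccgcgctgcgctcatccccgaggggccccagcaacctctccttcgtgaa

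The p53 decamers began 73 and 51 bases before the first start site of *Cdkn1a*, and 8.36% of all 32851 windows held at least 1 match on either strand. Of the members, only the *Cdkn2d* window held another. The GC boxes of the second *Cdkn1a* window began 104 and 46 bases before its start site. GC boxes were also found in windows of *Cdkn1b*, *Cdkn2c*, *Cdkn2d*, *Ccnd3* and *Cdk4*, and in 35.7% of all windows. The TATAAA of *Cdk6* began 103 bases before its start site, a motif found in 13.6% of all windows and in no other member window. The *Cdk4* window held 4 copies of CACGTG, against 7.15% of all windows with at least 1. CACGTG is 1 form of the E-box CANNTG, so each such match counts for both, and CANNTG was found in 72.3% of all windows. The homeodomain motif TAATTA (5.29% of all windows) was found in 1 window of *Cdkn2c*, and the FOXO motif GTAAACA (3.65%) in 1 window of *Ccnd3*. The E2F motifs TTTCCCGC and TTTGGCGC, searched together (1.56%), were found in none of the 10. A match is a stretch of letters, not a measured binding site.

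In the CH of *Lmx1a-/-* embryos, 3 of the 9 members were lower and none was higher. These were *Cdkn1a*, with the largest fold change of the 9, *Ccnd2* and *Cdk6*, 1 gene of each role. The other 3 inhibitors, the other 2 D cyclins and *Cdk4* did not pass the threshold, an edgeR quasi-likelihood FDR under 0.1 over all 21664 tested genes. By the same rule, 4.02% of the tested genes were called, 2.29% as lower and 1.72% as higher. At an unadjusted p under 0.05, 3545 genes passed by the edgeR quasi-likelihood test. All values of *Cdkn1a* and of *Cdk6* in wild-type embryos lay above all values in *Lmx1a-/-* embryos, so genotypes did not overlap for 2 of 9 members, against 4.44% of the tested genes in either direction. The median log2 fold change of all tested genes was -0.0049.

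**Figure D1:**
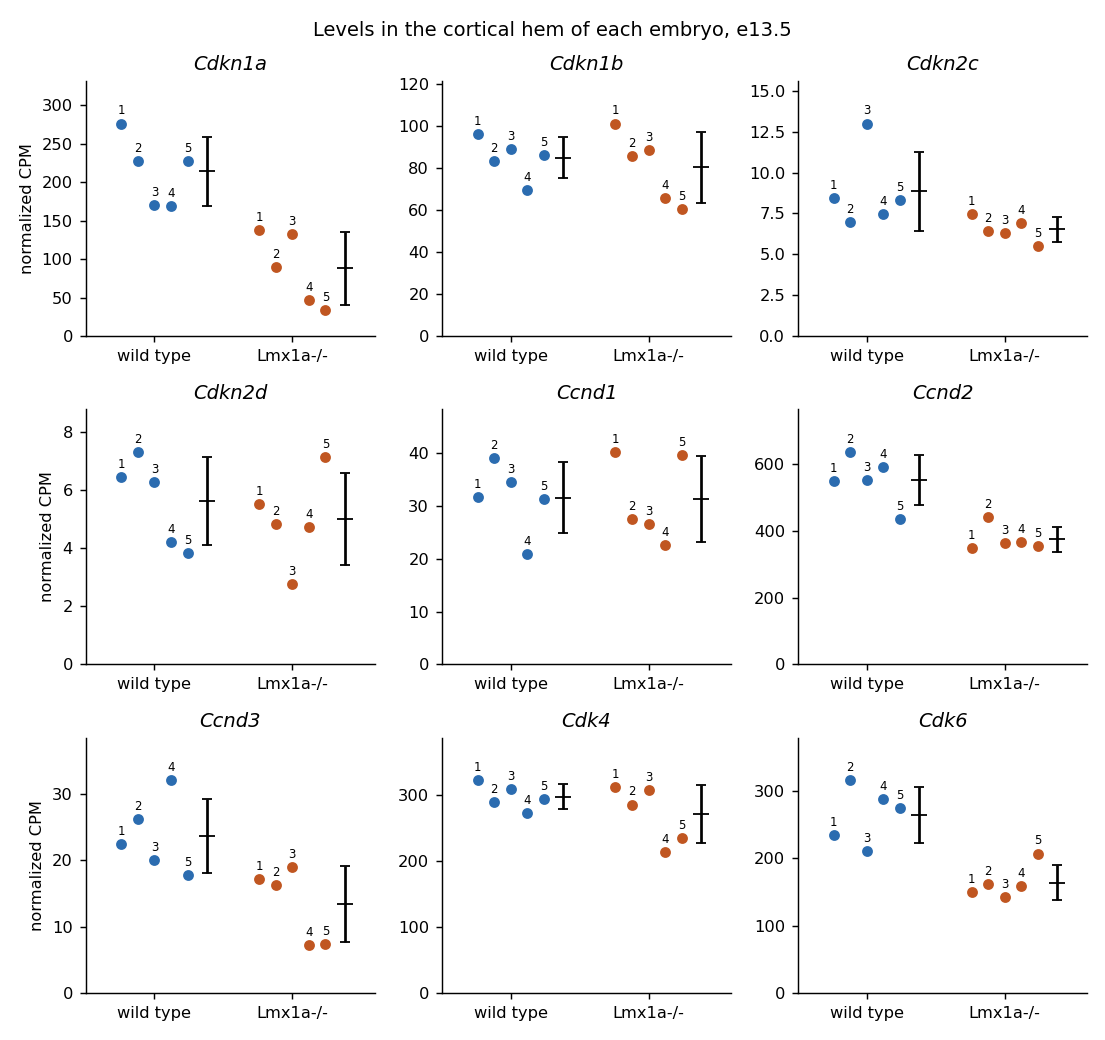
Normalized CPM (y axis, from 0) of each member in each embryo of both genotypes, with the embryo number above each point and the mean ± SD of 5 embryos to the right. Wild-type and *Lmx1a-/-* points are apart for *Cdkn1a* (169 to 276 against 34.1 to 138 CPM) and *Cdk6* (211 to 316 against 142 to 207 CPM), and embryos 4 and 5 are the lowest *Lmx1a-/-* points for *Cdkn1a*, *Cdkn1b*, *Ccnd3* and *Cdk4*.

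Among the inhibitors, *Cdkn1a* (ENSMUSG00000023067, GRCm38 chr17:29090976-29100727, plus strand), which halts the cycle and is a known target of p53, had 276, 228, 170.0, 169 and 227 CPM in wild-type embryos 1 to 5. In *Lmx1a-/-* embryos 1 to 5 it had 138, 89.0, 132, 46.7 and 34.1 CPM. Every *Lmx1a-/-* value was below every wild-type value, and the *Lmx1a-/-* embryos spread over a 4.05-fold range against 1.63-fold among wild-type embryos. The mean fell from 214 ± 45.2 to 87.9 ± 47.6 CPM (SD, n = 5 each), a log2 fold change of -1.28 with an SE of 0.33 and a 95% interval from -1.98 to -0.58 (edgeR quasi-likelihood FDR = 0.0631). This is 2.43-fold less transcript in the captured tissue; fewer cells with the transcript and less of it per cell cannot be told apart in bulk samples. The call was close to the threshold. It was lost in 5 of the 10 fits that left out 1 embryo, with an edgeR quasi-likelihood FDR of 0.141, 0.119 and 0.102 when the wild-type embryo left out was number 1, 2 or 5, and of 0.126 and 0.136 when *Lmx1a-/-* embryo 2 or 4 was left out. The log2 fold change over those 10 fits lay between -1.51 and -1.07.

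*Cdkn1b*, whose product holds back cells that are leaving the cycle, had 96.0, 83.4, 89.0, 69.4 and 86.3 CPM in wild-type embryos and 101, 85.5, 88.8, 65.6 and 60.6 CPM in *Lmx1a-/-* embryos. The genotypes overlapped over most of their range. The log2 fold change was -0.08 (95% interval -0.37 to 0.21, edgeR quasi-likelihood FDR = 0.829), so a change of the size measured for *Cdkn1a* lay outside the interval of *Cdkn1b*. The ratio of *Cdkn1a* to *Cdkn1b* counts within a library, which does not depend on scaling, tests whether these inhibitors of 1 family changed unequally. Their GC contents differ (54.4% and 43.1%), and the ratio does not take out the GC dependence of libraries, which moved with genotype as described below. The part of GC content in this ratio was not tested. It was 2.88, 2.73, 1.91, 2.44 and 2.63 in wild-type embryos 1 to 5 and 1.36, 1.04, 1.49, 0.712 and 0.562 in *Lmx1a-/-* embryos. *Lmx1a-/-* embryos 4 and 5 had less *Cdkn1a* than *Cdkn1b*, and no wild-type embryo did. The mean log2 ratio fell by 1.37 (two-sided exact permutation p = 0.00794, the smallest that 252 splits allow, and 0.0317 after adjustment over 4 pairs), and it fell by 1.17 to 1.52 with each embryo left out in turn.

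The INK4 inhibitors were much less abundant. *Cdkn2c* had 8.44, 6.99, 13, 7.47 and 8.31 CPM in wild-type embryos and 7.48, 6.41, 6.30, 6.90 and 5.50 CPM in *Lmx1a-/-* embryos. The genotypes overlapped, and wild-type embryo 3 stood above all others. The log2 fold change of *Cdkn2c* was -0.44 (95% interval -0.86 to -0.03, edgeR quasi-likelihood FDR = 0.268). *Cdkn2d* had 6.46, 7.31, 6.26, 4.20 and 3.84 CPM in wild-type embryos and 5.52, 4.84, 2.76, 4.74 and 7.13 CPM in *Lmx1a-/-* embryos, from only 81 to 213 counts per library. Its genotypes overlapped throughout, with a log2 fold change of -0.17 (95% interval -0.74 to 0.40, edgeR quasi-likelihood FDR = 0.812), an interval wide enough to hold changes as large as that of *Ccnd2* below. The ratio of *Cdkn2c* to *Cdkn2d* counts differed by -0.22 on the log2 scale (two-sided exact permutation p = 0.524, adjusted 0.524).

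Of the D cyclins, *Ccnd2* (ENSMUSG00000000184, chr6:127125162-127152193, minus strand), the D cyclin with the most counts in these libraries, had 548, 636, 553, 592 and 436 CPM in wild-type embryos 1 to 5. In *Lmx1a-/-* embryos 1 to 5 it had 349.7, 441, 362, 368 and 353 CPM. Wild-type embryo 5, the lowest of its genotype, and *Lmx1a-/-* embryo 2, the highest of its own, were the only pair to overlap. The mean fell from 553 ± 74.5 to 375 ± 37.9 CPM (SD, n = 5 each), a log2 fold change of -0.56 with an SE of 0.10 and a 95% interval from -0.78 to -0.35 (edgeR quasi-likelihood FDR = 0.0102). The call was kept in 10 of 10 fits without 1 embryo, with log2 fold changes from -0.64 to -0.51.

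*Ccnd1*, a common target of growth factor signaling, had 31.8, 39.1, 34.6, 20.9 and 31.4 CPM in wild-type embryos and 40.2, 27.6, 26.6, 22.6 and 39.7 CPM in *Lmx1a-/-* embryos. Its means of 31.5 ± 6.71 and 31.4 ± 8.09 CPM (SD, n = 5 each) differed by less than the spread between embryos (log2 fold change -0.01, 95% interval -0.41 to 0.39, edgeR quasi-likelihood FDR = 0.987). The mean log2 ratio of *Ccnd1* to *Ccnd2* counts was higher by 0.54 in *Lmx1a-/-* embryos (two-sided exact permutation p = 0.0714, adjusted 0.0952), so an unequal change of these cyclins did not pass 0.05.

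*Ccnd3*, the third D cyclin, had 22.5, 26.2, 20, 32.1 and 17.8 CPM in wild-type embryos and 17.3, 16.4, 19.1, 7.17 and 7.41 CPM in *Lmx1a-/-* embryos. *Lmx1a-/-* embryos 4 and 5 stood below all others, and embryo 3 overlapped wild-type embryo 5. The log2 fold change was -0.82 with an SE of 0.28 and a 95% interval from -1.41 to -0.22, which did not pass the threshold over all genes (edgeR quasi-likelihood FDR = 0.154). It passed with DESeq2 (FDR = 0.0394), the edgeR likelihood ratio test (FDR = 0.0801) and without *Lmx1a-/-* embryo 3 (edgeR quasi-likelihood FDR = 0.0978).

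Of the kinases, *Cdk6* (ENSMUSG00000040274, chr5:3341485-3531008, plus strand) had 235, 316, 211, 288 and 274 CPM in wild-type embryos 1 to 5 and 150.2, 162, 142, 159 and 207 CPM in *Lmx1a-/-* embryos 1 to 5. The genotypes did not overlap, although wild-type embryo 3 and *Lmx1a-/-* embryo 5 came close. The mean fell from 265 ± 41.7 to 164 ± 25.3 CPM (SD, n = 5 each), a log2 fold change of -0.69 with an SE of 0.12 and a 95% interval from -0.95 to -0.43 (edgeR quasi-likelihood FDR = 0.00966). The call was kept in 10 of 10 fits without 1 embryo, between -0.78 and -0.63.

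*Cdk4*, which can take the place of *Cdk6* with any D cyclin, had 323, 289.8, 309.6, 274 and 294 CPM in wild-type embryos and 312, 286, 308, 215 and 236 CPM in *Lmx1a-/-* embryos. *Lmx1a-/-* embryos 1 to 3 lay within the wild-type range and embryos 4 and 5 below it. The log2 fold change was -0.14 (95% interval -0.36 to 0.09, edgeR quasi-likelihood FDR = 0.563). Within libraries, the mean log2 ratio of *Cdk4* to *Cdk6* counts was higher by 0.54 in *Lmx1a-/-* embryos (two-sided exact permutation p = 0.0556, adjusted 0.0952), again not past 0.05.

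**Figure D2:**
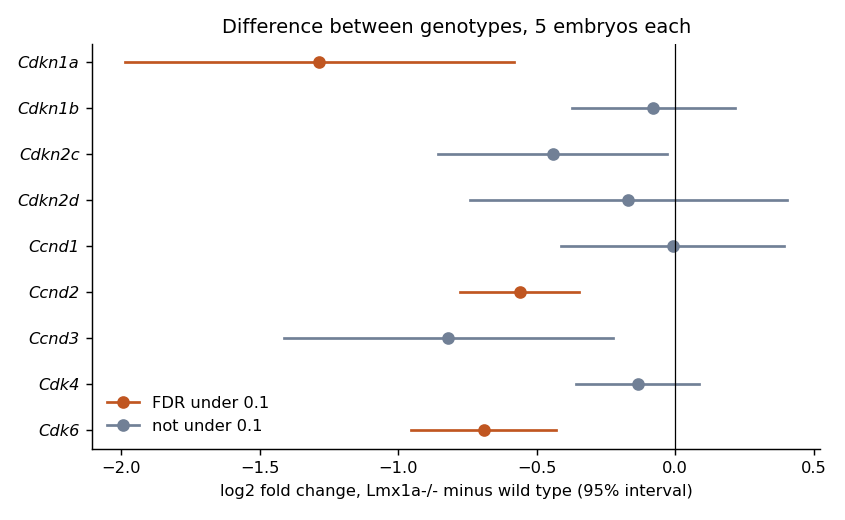
Log2 fold change of each member, *Lmx1a-/-* minus wild type (x axis, points), with its 95% interval (lines) from the edgeR quasi-likelihood fit of 5 embryos per genotype. The intervals of *Cdkn1a* (-1.98 to -0.58), *Ccnd2* (-0.78 to -0.35) and *Cdk6* (-0.95 to -0.43) belong to the 3 members past an FDR of 0.1, and those of *Cdkn2c* and *Ccnd3* also lie below 0.

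The plot of fold changes shows that all 9 point estimates were at or below 0, and that the interval of *Cdkn1a*, the widest of the 3 called members, overlapped those of *Ccnd2* and *Cdk6*. *Cdkn1a* was not shown to have changed more than they did.

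Levels of different genes were compared per kb of exon. In wild-type embryos *Cdk4* was highest, at 91.7 ± 5.83 CPM per kb, followed by *Cdkn1a* at 60.2 ± 12.7 and *Ccnd2* at 58.8 ± 7.91 CPM per kb (SD, n = 5). *Cdkn1a* and *Ccnd2* overlapped each other but not *Cdk4*. *Cdk6* at 18.9 ± 2.98 and *Cdkn1b* at 18.6 ± 2.16 CPM per kb came next and overlapped. *Ccnd1* (6.70), *Cdkn2d* (3.57), *Cdkn2c* (3.29) and *Ccnd3* (2.7 CPM per kb) came last, each overlapping the next. In *Lmx1a-/-* embryos *Ccnd2* (39.8 ± 4.03 CPM per kb) stood above *Cdkn1a* (24.8 ± 13.4), and *Cdkn1b* (17.6 ± 3.70) above *Cdk6* (11.7 ± 1.81). With the longest transcript as the length, the wild-type levels of *Cdkn1a* and *Cdk4* came to 103 and 145 CPM per kb and that of *Ccnd3* to 6.15 CPM per kb.

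**Figure D3:**
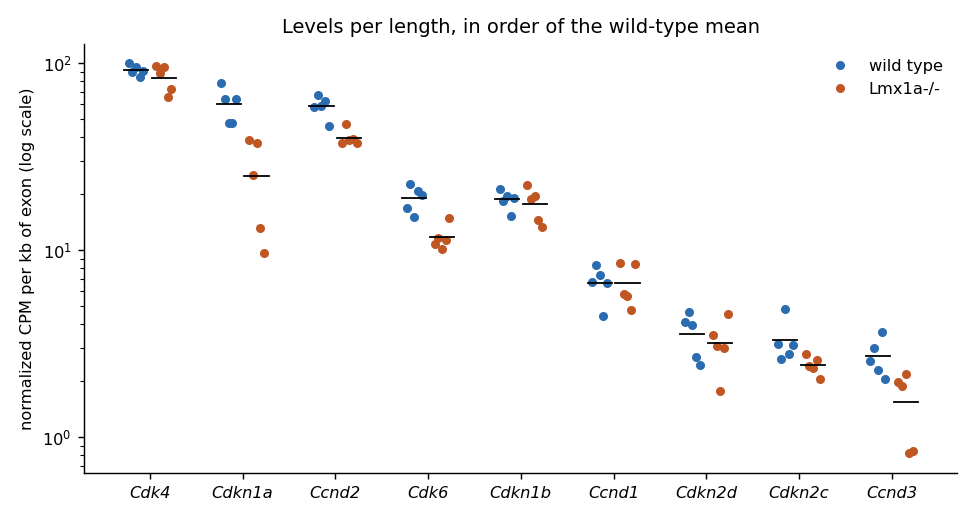
Normalized CPM per kb of exon on a log scale (y axis) for each embryo of both genotypes (points) with genotype means (lines), members in the order of their wild-type mean. *Cdk4*, *Cdkn1a* and *Ccnd2* lead in wild-type embryos at 91.7, 60.2 and 58.8 CPM per kb, and the *Cdkn1a* points of *Lmx1a-/-* embryos spread from 9.58 to 38.8 CPM per kb.

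*Ccnd2* made up 86.1 ± 1.6% of the summed D cyclin level per length in wild-type and 82.9 ± 3.91% in *Lmx1a-/-* embryos (SD, n = 5 each). *Cdkn1a* made up 69.9 ± 4.20% of the 4 inhibitors in wild-type and 48.4 ± 12.1% in *Lmx1a-/-* embryos, while *Cdkn1b* went from 21.9 ± 2.27% to 38.4 ± 5.93%. The share of *Cdk4* in the 2 kinases was 82.8 ± 2.96% and 87.4 ± 3.12%. The summed inhibitors per summed D cyclin, also per length, ranged from 0.962 to 1.61 in wild-type and from 0.630 to 1.41 in *Lmx1a-/-* embryos, so these ranges overlapped widely. Shares and sums are given as a description, without a test.

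Other parts of the pathway were described with lists of genes. The counts of each list stand beside 2.29% of all tested genes called lower and 1.72% called higher. Of 3 other CDK inhibitors, only *Cdkn1c*, the remaining Cip/Kip gene, was tested, with 43.5 ± 17.5 CPM in wild-type embryos and 51.3 ± 7.72 CPM in *Lmx1a-/-* embryos (SD, n = 5 each; log2 fold change 0.24, edgeR quasi-likelihood FDR = 0.629). *Cdkn2b* did not reach the filter on low counts, and *Cdkn2a* had 0 counts in every library, which allows up to 3 counts in each. Of 13 genes of the RB and E2F family, 2 were lower and 1 was higher by the edgeR quasi-likelihood test, with a median log2 fold change of -0.01. The repressors *E2f8* (-0.38, FDR = 0.0438) and *E2f7* (-0.49, FDR = 0.0766) fell, and *E2f5*, an E2F that pairs with RB relatives, rose (0.46, FDR = 0.0438). *Rb1* itself had 134 ± 16.9 and 122 ± 11.7 CPM (FDR = 0.554). Of 11 other G1 and S cyclins, kinases and activators, none passed in either direction, with a median of -0.06; *Ccna1* had the smallest p (log2 fold change -0.85, edgeR quasi-likelihood FDR = 0.234), and *Cdk2* (-0.18), *Ccne1* (-0.20) and *Ccna2* (-0.10) had FDRs of 0.489 to 0.596.

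Over all tested genes 2.29% were lower and 1.72% higher, so a single call is not read as a change of a list. Of 23 replication genes activated by E2F, 1 was lower and none higher by the edgeR quasi-likelihood test, with a median log2 fold change of -0.08. This was *Tyms*, which makes thymidylate (-0.26, FDR = 0.0872), while *Mcm7*, a helicase subunit, had 0.26 (FDR = 0.104) and *Pcna*, the sliding clamp, -0.07 (FDR = 0.75). Of 24 G2 and M phase genes, 2 were lower and none higher, with a median of 0.0026. *Cdc25b*, a phosphatase that activates Cdk1 for mitosis, fell from 24.7 ± 3.84 to 15.2 ± 3.05 CPM (SD, n = 5 each; -0.70, edgeR quasi-likelihood FDR = 0.0356), and *Ube2c*, a ubiquitin-conjugating enzyme of mitotic exit, fell from 189.8 ± 21.7 to 146 ± 18.9 CPM (-0.38, FDR = 0.0791). *Mki67*, the general marker of cycling cells, stood at 1363 ± 110 and 1373 ± 206 CPM (0.01, edgeR quasi-likelihood FDR = 0.973). Of 14 tested ubiquitin ligase genes that turn the member proteins over, none passed in either direction, with a median of -0.04; *Skp2*, which targets the *Cdkn1b* product, had 194 ± 16.3 and 180.1 ± 5.05 CPM (FDR = 0.475).

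Of 17 transcriptional regulators of *Cdkn1a*, 3 were lower and none higher by the edgeR quasi-likelihood test, against 2.29% and 1.72% of all tested genes. The median log2 fold change of the list was -0.03. *Foxo1*, a forkhead activator, had 28.9 to 40.8 CPM in wild-type embryos and 18.0 to 23.5 CPM in *Lmx1a-/-* embryos, without overlap, and fell by 0.76 (FDR = 0.00313). *Foxo3*, its relative, fell by 0.42 (FDR = 0.0736). *Trp73*, a p53 relative that is also a marker of Cajal-Retzius cells, fell from 82.1 ± 17.5 to 45.6 ± 9.74 CPM (-0.85, FDR = 0.0208). *Trp53* itself was at 104 ± 16.2 and 97.8 ± 14.4 CPM (-0.09, edgeR quasi-likelihood FDR = 0.769). *Mycn* (0.51, FDR = 0.113) and *Klf4* (0.70, FDR = 0.175) had higher means in *Lmx1a-/-* embryos and did not pass. By mean, 10 of the 17 were lower and 7 higher, against 10962 lower and 10702 higher of all 21664 tested genes.

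Of 22 other tested p53 target genes, 3 were lower and none higher by the edgeR quasi-likelihood test, against 2.29% and 1.72% of all tested genes. The median log2 fold change of the list was -0.10. *Eda2r*, a receptor gene, fell from 9.21 ± 3.23 to 3.67 ± 1.27 CPM (-1.33, FDR = 0.0410), and *Pidd1*, which encodes a death domain scaffold, fell from 36.5 ± 4.91 to 20.3 ± 7.25 CPM (-0.84, FDR = 0.0535). *Perp*, a desmosome gene, fell by 2.54 on the log2 scale (FDR = 0.0913), with 85.7 CPM in wild-type embryo 4 against 4.73 to 16.6 CPM in the other 4 wild-type embryos and 1.68 to 8.07 CPM in *Lmx1a-/-* embryos. The classical targets *Mdm2* (0.01, edgeR quasi-likelihood FDR = 0.973) and *Ccng1* (-0.10, FDR = 0.605) did not pass. Nor did *Phlda3* (-1.52, FDR = 0.124) and *Xpc* (0.38, FDR = 0.142), each without overlap between genotypes. By mean, 17 of the 22 were lower and 5 higher, against 10962 lower and 10702 higher of all 21664 tested genes.

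Markers of cell types that the captured tissue could hold were lower in some lists. The share over all tested genes was 2.29% lower and 1.72% higher. Of 12 tested markers of Cajal-Retzius cells, the early neurons born in the CH, 4 were lower and 1 higher, with summed levels of 487 to 760 CPM in wild-type embryos and 361 to 519 CPM in *Lmx1a-/-* embryos. Of 12 tested choroid plexus markers, 4 were lower and none higher, with 154 to 504 CPM against 154 to 239 CPM. Of 10 markers of telencephalic progenitors, 2 were higher and none lower, with 1903 to 2785 CPM against 3128 to 3997 CPM. Of 13 CH markers 5 were lower and 1, *Lmx1a*, higher, of 10 markers of mesenchyme 3 were lower, and of 9 of endothelium 1. This endothelial marker was *Kdr* (93.6 ± 26.2 and 38.3 ± 7.38 CPM, edgeR quasi-likelihood FDR = 0.00249), which the paper also counts among markers of the CH. The 8 tested genes of red blood cells did not pass singly, but 7 of 8 had a lower mean in *Lmx1a-/-* embryos, with a median log2 fold change of -0.91, and their sums did not overlap (632 to 1473 CPM against 267 to 573 CPM). Of all 21664 tested genes, 10962 had a lower mean. No marker of neurons (11) or microglia (8) passed, and their sums overlapped between genotypes.

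The Cajal-Retzius sum was 751, 693, 611, 487 and 760 CPM in wild-type embryos 1 to 5, and 507, 519, 490, 361 and 408 CPM in *Lmx1a-/-* embryos 1 to 5. The choroid plexus sum was 472, 504, 154, 351 and 432 CPM in the former, and 164, 154, 239, 218 and 197 CPM in the latter. Wild-type embryos 1, 2 and 5, with the highest sums of both lists, also had the most *Cdkn1a* (227 to 276 CPM), and wild-type embryos 3 and 4 were lower in both sums and in *Cdkn1a* (170.0 and 169 CPM). *Lmx1a-/-* embryos 4 and 5 were the lowest in the Cajal-Retzius sum and in *Cdkn1a*, but not in the choroid plexus sum. The part of Cajal-Retzius cells and of blood in the difference of *Cdkn1a* was not tested. With the mean choroid plexus level added to the fit, none of the 9 members passed, and the edgeR quasi-likelihood log2 fold changes were -0.69 for *Cdkn1a* (FDR = 0.946), -0.62 for *Ccnd2* (FDR = 0.541) and -0.40 for *Cdk6* (FDR = 0.899). With the *Xist* level added instead they were -1.67 (FDR = 0.320), -0.57 (FDR = 0.327) and -0.50 (FDR = 0.464). Both covariates ran closely with genotype over the 10 libraries, with coefficients of -0.84 and -0.83, so their parts can hardly be told apart, and 15 and 31 of all genes passed in these fits.

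The dependence of a library's levels on GC content, relative to the average of the 10 libraries, also moved with genotype. This relative slope is that of a gene's log2 CPM, minus its mean over the 10 libraries, on its GC percent. It was 0.11, 0.04, 0.06, 0.05 and -0.02 per 10 points of GC in wild-type embryos 1 to 5 and 0.04, -0.07, 0.00034, -0.12 and -0.10 in *Lmx1a-/-* embryos 1 to 5. *Lmx1a-/-* embryos 4 and 5 were the lowest in this slope as well as, within their genotype, in *Cdkn1a*, *Cdkn1b*, *Ccnd3* and *Cdk4*, and wild-type embryo 1 was the highest in the slope and in *Cdkn1a*. The median tested gene had 48.4% GC. *Cdkn2c* (58.0%), *Ccnd3* (56.7%), *Cdkn2d* (55.8%), *Cdkn1a* (54.4%), *Cdk4* (53.3%) and *Ccnd1* (50.9%) lay above it, and *Ccnd2* (47.1%), *Cdk6* (45.1%) and *Cdkn1b* (43.1%) below it. Those lowest in *Lmx1a-/-* embryos 4 and 5 were thus *Ccnd3*, *Cdkn1a* and *Cdk4*, above the median in GC, and *Cdkn1b*, the lowest in GC. *Cdkn2d*, GC-rich but with only 81 to 213 counts per library, had its highest *Lmx1a-/-* level in embryo 5 (7.13 CPM). *Cdkn2c* and *Ccnd1*, also above the median in GC, were not lowest in both of these embryos. In *Lmx1a-/-* embryos 4 and 5 *Cdkn2c* had 6.90 and 5.50 CPM, against 6.30 to 7.48 CPM in embryos 1 to 3. *Ccnd1* had 22.6 and 39.7 CPM there, against 26.6 to 40.2 CPM in embryos 1 to 3. The part of GC content in these levels was not tested. With a per-library offset for GC, chosen after seeing the data, the calls of *Cdkn1a* (-1.22, edgeR quasi-likelihood FDR = 0.0690), *Ccnd2* (-0.53, FDR = 0.0142) and *Cdk6* (-0.68, FDR = 0.00735) were kept. With the slope itself as a covariate *Cdkn1a* (-0.66, FDR = 0.686) and *Ccnd2* (-0.51, FDR = 0.304) lost theirs, and *Cdk6* (-0.91, FDR = 0.0272) kept its call. The slope had a coefficient of -0.70 with genotype over the 10 libraries, so their parts can hardly be told apart.

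**Figure D4:**
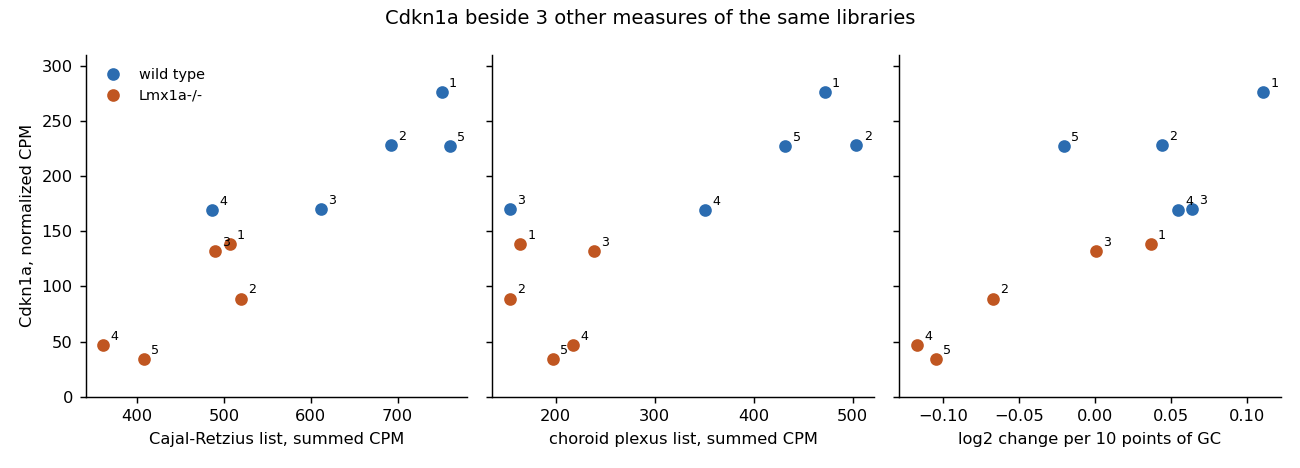
*Cdkn1a* (y axis, normalized CPM) in each embryo against other measures of its library (x axes), colored by genotype and numbered by embryo. The measures are the summed CPM of the Cajal-Retzius list, that of the choroid plexus list and a relative GC slope. The slope is that of log2 CPM, minus each gene's mean over the 10 libraries, per 10 points of GC. Wild-type embryos 1, 2 and 5, highest in *Cdkn1a*, have the highest sums of both lists, and *Lmx1a-/-* embryos 4 and 5, lowest in *Cdkn1a*, have the lowest Cajal-Retzius sums (361 and 408 CPM) and GC slopes (-0.12 and -0.10).

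The plots of *Cdkn1a* against these measures show genotypes that stand apart in *Cdkn1a* and overlap in part along each x axis. Leaving out both *Lmx1a-/-* embryos 4 and 5 gave a log2 fold change of -0.83 for *Cdkn1a* (edgeR quasi-likelihood FDR = 0.0805), -0.52 for *Ccnd2* (FDR = 0.1005), which then missed the threshold, and -0.80 for *Cdk6* (FDR = 0.0187). This omission was chosen after the data were seen, because these 2 embryos were the lowest in *Cdkn1a* and *Ccnd3*, so it was picked on the outcome and is 1 of 30 alternatives.

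**Figure D5:**
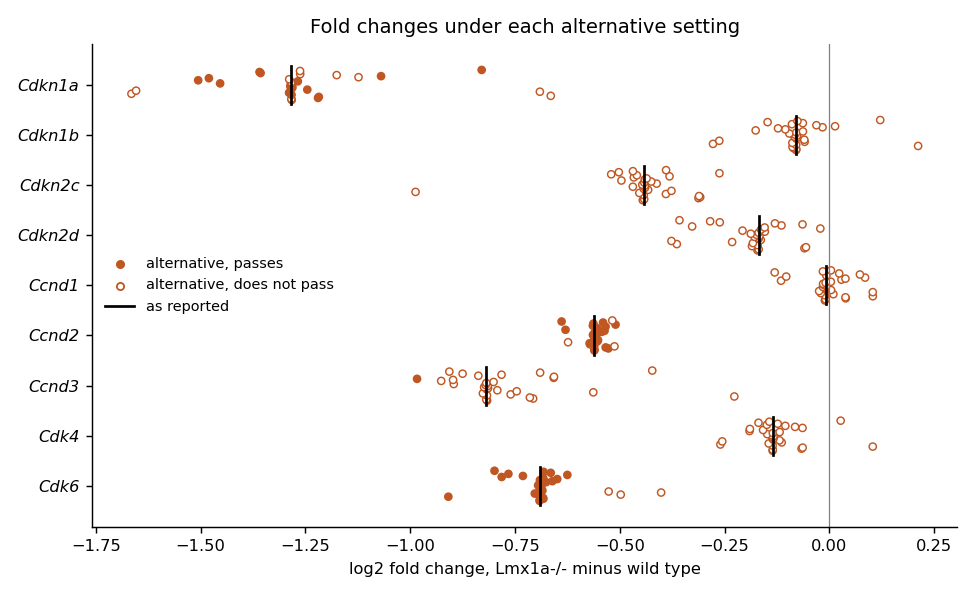
Log2 fold change of each member, *Lmx1a-/-* minus wild type (x axis), as reported (black bar) and under each of 30 alternatives (circles, filled where the alternative passes its threshold). *Cdkn1a* passes in 19, *Ccnd2* in 25, *Cdk6* in 27 and *Ccnd3* in 3 of the 30, and the other 5 members in none.

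In the plot of alternatives, all circles of *Cdkn1a*, *Cdkn2c*, *Cdkn2d*, *Ccnd2*, *Ccnd3* and *Cdk6* lie below 0. *Cdk4* kept its direction in 28 of 30, *Cdkn1b* in 27 and *Ccnd1*, whose estimate was near 0, in 17. The *Cdkn1a* circles spread from -1.67 to -0.66, wider than those of *Ccnd2* from -0.64 to -0.51 and *Cdk6* from -0.91 to -0.40.

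Genes whose levels varied most like those of a called member, once the mean of each genotype was taken off, were looked up over the 10 libraries among 9268 genes as a description. For *Cdkn1a* these included *Pigt*, *Hyal2*, *Vps72* and *Cd81*, with Pearson coefficients of 0.96 to 0.97. These 4 were lowest in *Lmx1a-/-* embryos 4 and 5, as *Cdkn1a* was. For *Ccnd2* they were *Maip1*, *Lsg1*, *Maco1*, *Nop58* and *Smarcc1*, with 0.90 to 0.94. For *Cdk6* they were *Copg2*, *Cep83*, *Ugdh*, *Idh3a* and *Trim44*, with 0.90 to 0.96. The points share depth and base composition within a library.

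Some exons of members lie opposite a gene on the other strand, and the strand setting of the counting is not given in the sources used here, so these counts could include reads of both. The overlap was 1100 of 4709 exon bp for *Ccnd1* with *LTO1*, 641 of 3249 bp for *Cdk4* with *Tspan31* and 361 of 8775 bp for *Ccnd3* with *Bysl*. *Tspan31*, a tetraspanin gene, was itself lower (-0.72, edgeR quasi-likelihood FDR = 0.0120), with 5449 counts in all libraries against 77055 for *Cdk4*. *Bysl* had a log2 fold change of -0.39 (FDR = 0.242) and 4104 counts against 4816 for *Ccnd3*. The 3 called members shared no exon with an antisense gene of more than 414 counts over the 10 libraries, against 39965 or more for each of them.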

How the data were processed

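The authors trimmed paired reads of SMARTer mRNA-seq libraries with Trimmomatic, aligned them to GRCm38 with STAR 2.7.1a, counted reads per Ensembl gene with HTSeq 0.11.2 and deposited the raw counts, with FastQC 0.11.8 also named in the submitters' processing notes. Of 52508 rows, 281 exact repeats were dropped, and 52227 genes remained. Genotypes come from the sample labels.

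Tested genes had 10 or more counts in 3 or more libraries, and genotypes were compared with R 4.3.3 and edgeR 4.0.16 (TMM scaling, quasi-likelihood test with the legacy dispersion method, no covariate, all 10 libraries), with Benjamini-Hochberg adjustment over all tested genes and an FDR under 0.1 as the threshold. SEs were derived as the size of the log2 fold change over the root of F. Libraries of 19145952 to 36462780 counts gave the members 81 counts or more in each, and the spread between embryos, not counting error, set most intervals. Positions and exon lengths come from the GENCODE M21 annotation of GRCm38, which is not the annotation release of the counting. Promoter sequences come from RefSeq. Count ratios were compared with a two-sided exact permutation test over 252 splits, adjusted over 4 pairs.

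The genes named are the 9 members, *Lmx1a*, genes of pathway lists chosen mainly by smallest p (with *Pcna*, *Mki67*, *Trp53*, *Mdm2* and *Ccng1* added as well-known members), and for each called member the 5 genes with the most similar pattern, of which 1 is not reported here. The members and lists were chosen with earlier results of these data known. *Kdr* was named as the only endothelial marker that passed. Alternatives were other scalings, filters, dispersion methods and tests (limma 3.58.1 is loaded by edgeR; DESeq2 1.42.0), covariates, a replicate block, repeated rows kept, mitochondrial genes left out and each embryo left out. Offsets for GC content (alone and with length), the GC slope as a covariate, the embryos with Y-linked transcripts only, and the omission of both *Lmx1a-/-* embryos 4 and 5 were chosen after seeing the data. On simulated counts with changed genes (21009 genes tested), the quasi-likelihood test made 124 calls, of which 6.45% were false, and the likelihood ratio test and DESeq2 had 26.9% and 26.6% false calls. The quasi-likelihood test recovered 66% of the larger planted changes and 50% of the smaller. The simulated libraries had no differences in sex, GC content or tissue, and false shares depend on how many genes change, so they need not hold for the real libraries.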

Additional observations from a re-analysis of the deposited data

Results flagged for a closer look

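Of 20 groups of 5 embryos (9 members and *Lmx1a* in each genotype), 2 held an embryo that stood far from the others, where chance gives about 1 in 20. *Ccnd2* was 441 CPM in *Lmx1a-/-* embryo 2 against 368 CPM in the nearest other *Lmx1a-/-* embryo, a gap of 0.804 of the range of the group. *Cdkn2c* was 13 CPM in wild-type embryo 3 against 8.44 CPM in the nearest other wild-type embryo, a gap of 0.760 of the range.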

How the results depend on the processing

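Log2 fold changes and counts of called genes were recomputed under 30 alternatives, and *Cdkn1a*, *Ccnd2* and *Cdk6* kept their direction in all of them. Count ratios were recomputed only with each embryo left out. Wild-type levels per length were recomputed only with another length, without TMM scaling or without 1 wild-type embryo. List medians, sums, shares and similar patterns were not recomputed. As reported, 497 genes were lower and 373 higher, with 11 lower and 1 higher in the pathway lists. *Cdkn1a* lost its call with robust dispersions (-1.28, FDR = 0.160) and at an FDR under 0.05. *Ccnd3* (-0.82) gained one with the edgeR likelihood ratio test (FDR = 0.0801) and DESeq2 (FDR = 0.0394). These tests gave 805 and 976 lower genes, DESeq2 790 higher, and an FDR under 0.05 gave 251 lower and 197 higher. Higher genes of the pathway lists numbered 3 with upper quartile scaling and with 10 counts in every library, 2 with the newer dispersion method, the likelihood ratio test and robust dispersions, and 5 with DESeq2, and 5 list genes were lower at an FDR under 0.05. The *Ccnd1* estimate of -0.01 turned to 0.0032 with upper quartile scaling and 0.0038 with library size only. The labels do not say that embryo numbers pair the samples, and no pairing was assumed. Same-numbered embryos had coefficients of 0.026, 0.0070, -0.25, -0.041 and -0.024 in their deviations from the genotype means. Those of different numbers lay between -0.28 and 0.32, so this check cannot show whether litters were shared. The paper compared mutants with wild-type littermates, without giving the litter of each embryo. A replicate block changed no member's call (*Cdkn1a* -1.45, *Ccnd2* -0.55 and *Cdk6* -0.69) and gave 353 lower and 248 higher genes and 6 lower list genes.

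With the choroid plexus covariate, 9 genes were lower, 6 higher, and 0 of the members and list genes passed. *Cdkn1a* had -0.69, *Ccnd2* -0.62, *Cdk6* -0.40, and signs turned for *Ccnd1* (0.10), *Cdkn1c* (-0.28), *E2f7* (0.043), *E2f2* (0.065) and *Ccna1* (0.67). With the *Xist* covariate, 27 genes were lower, 4 higher and 0 of the members and list genes passed, with *Cdkn1a* at -1.67, *Ccnd2* at -0.57, *Cdk6* at -0.50, *Ccnd1* at 0.0093 and *Dtl* at 0.017. With each embryo left out in turn, 261 to 604 genes were lower and 190 to 455 higher, 4 to 13 list genes were lower and 0 to 4 higher. *Cdkn1a* lay between -1.51 and -1.07, *Ccnd3* between -0.98 and -0.66, *Ccnd1* between -0.13 and 0.085 and *Cdkn1b* between -0.18 and 0.013, and the log2 ratio differences between 0.37 and 0.64 for *Ccnd1* to *Ccnd2* and between 0.44 and 0.67 for *Cdk4* to *Cdk6*. With the longest transcript as length, levels per kb moved to 145 (*Cdk4*), 103 (*Cdkn1a*), 87.3 (*Ccnd2*), 23.0 (*Cdk6*), 8.43 (*Ccnd1*) and 6.15 (*Ccnd3*).

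Of the alternatives chosen after seeing the data, both GC offsets gave 7 lower and 4 higher list genes and *Ccnd1* estimates of 0.038 and 0.039. The GC slope covariate left 86 lower and 40 higher genes, 1 lower member, 1 lower and 0 higher list genes, with *Cdkn1a* at -0.66, *Ccnd2* at -0.51, and signs turned for *Cdkn1b* (0.21), *Ccnd1* (0.10), *Cdk4* (0.10) and *Rnf123* (0.015). Without both *Lmx1a-/-* embryos 4 and 5, a pair picked for its low *Cdkn1a* and *Ccnd3*, 185 genes were lower and 124 higher, 3 list genes lower and 0 higher, with *Ccnd2* at -0.52, *Cdkn1b* at 0.12, *Ccnd1* at 0.0035 and *Cdk4* at 0.027. Among embryos with Y-linked transcripts only, where the wild-type side is 1 embryo assumed to vary like the others, 86 genes were lower and 44 higher, 0 members passed, 1 list gene was lower and 0 higher, with *Cdkn1a* at -1.65, *Ccnd2* at -0.55, *Cdk6* at -0.53 and *Dtl* log2 fold change at 0.0075. The cause of these shifts was not tested. Upper quartile scaling, library size only and the GC offsets moved the share of lower genes among the called from 57.1% to between 48.1% and 52.1%. Bulk libraries, 5 embryos per genotype and the uneven sex of the embryos limit these comparisons.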
